A study of Mus musculus with 6 samples.

Results

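The genes described here handle iron, haem and the metals bound by metallothioneins. They are the haem oxygenases Hmox1 and Hmox2, the ferritin subunits Fth1 and Ftl1, the iron carriers Tfrc, Slc11a2 and Slc40a1, the ferroxidase Cp, and the metallothioneins Mt1 and Mt2. They were chosen by name, and every probe set whose only gene symbol on the array platform was one of them was taken, which gave 27 of 45101 probe sets on the array. Of these, 3 are control probe sets for Tfrc and 24 are ordinary ones for 9 of the 10 genes. Ftl1 had no probe set of its own, because the 3 that list it also list other symbols, and no value is given for it.

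RNA of the stria vascularis, the secretory tissue that lines the outer wall of the cochlear duct, was measured on Affymetrix mouse 430.2 arrays in mice at postnatal day 10. The 3 control arrays (replicates 1, 3 and 5) came from mice heterozygous for Slc26a4, the gene of the anion exchanger pendrin, so the controls also lack 1 working copy. The 3 other arrays (replicates 2, 4 and 6) came from Slc26a4 knockout mice. Strain, sex, the form of the allele and whether arrays stand for single animals or pools are not given in the sources used here, so the p-values reflect only how far these samples spread, which may be technical in part. The comparison asks how gene expression differed between the genotypes before hearing starts.

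Cells take up transferrin-bound iron through the transferrin receptor, store it in ferritin shells and release it through ferroportin, after which ferroxidases such as ceruloplasmin load it onto transferrin. Haem oxygenases cut haem into biliverdin, carbon monoxide and iron, and metallothioneins are small cysteine-rich proteins that bind zinc and copper and are induced by metals, glucocorticoids and oxidative stress. The stria holds a dense capillary bed, melanin-bearing intermediate cells and resident macrophages, all of which meet iron or haem.

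None of the 24 probe sets passed the limma test in either analysis, with all arrays or without knockout replicate 4 (Benjamini-Hochberg adjustment over 27022 probe sets, threshold 0.05), and the limma adjusted p ran from 0.414 to 0.987 with all arrays. The same test called 1 of all 27022 probe sets, or 0.0037%, and 0.0481% without knockout replicate 4. At an unadjusted p under 0.05 there were 2 member probe sets, for Tfrc and Cp, where the share over all probe sets was 11.7%. The groups did not overlap in 1 of 24, a second measure on which 17.1% of all probe sets qualified. Differences below are knockout minus heterozygous in log2(signal + 16), a scale that understates the change of dim probe sets, and signal is the deposited linear intensity. With 3 arrays against 3, an exact two-sided permutation test cannot go below 0.1.

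The array of knockout replicate 4 was unlike the other 5, and several members turned on it. Its mean Pearson correlation with the other arrays was 0.963, against 0.979 to 0.982 for the rest, and its 3' to 5' signal ratio for the Actb control probe sets, a measure of RNA or cDNA integrity, was 4.48 against 2.42 to 3.15. Slc26a4 itself gave signals of 221, 248 and 1006 in heterozygous and 75.5, 106 and 154 in knockout arrays. Heterozygous replicate 5 stood far above the other heterozygous arrays. The log2 difference was -1.69 ± 0.50 (SE, limma adjusted p = 0.371), so the test did not call the knocked-out gene either. The lack of calls among the members therefore does not show a lack of difference. Markers of the stria gave high summed signals on every array. The sum of 6 marginal cell markers lay between 36360 and 42577, and that of 10 intermediate cell markers between 40415 and 47137. For 6 basal cell markers it lay between 39134 and 44490. Bright genes carry these sums, and some listed markers were dim, such as Pmel at 70.1 to 110. The data hold no detection call and every signal was positive, so presence of single markers was not tested. Because knockout replicate 4 was unlike the others, every member is given with and without it.

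**Figure D1:**
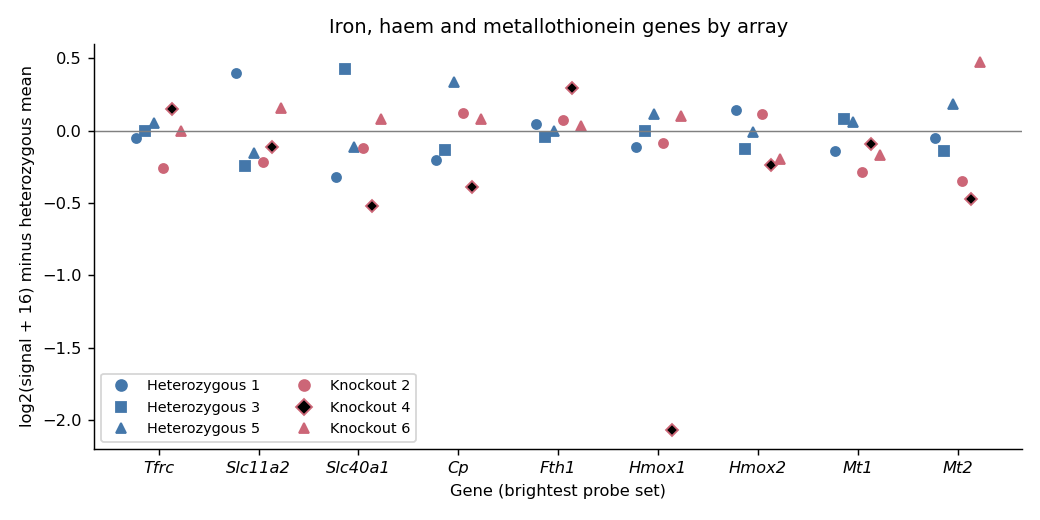
Each point is 1 array, as log2(signal + 16) minus the mean of the 3 heterozygous arrays, for the brightest probe set of each of 9 genes; circles, squares and triangles mark replicates, blue is heterozygous and red is knockout, with knockout replicate 4 as a black diamond. Hmox1 in knockout replicate 4 (a signal of 198 against 816 to 960 in the other arrays) is the lowest point of the plot.

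Hmox1, the inducible haem oxygenase, was level in 5 arrays and low in the sixth. Its only probe set gave 816, 882 and 960 in heterozygous replicates 1, 3 and 5, and 831, 198 and 948 in knockout replicates 2, 4 and 6. Both other knockout arrays lay inside the heterozygous range, and only knockout replicate 4 lay below it. The log2 difference was -0.69 ± 0.47 (SE), with a 95% interval from -1.74 to 0.37 (limma adjusted p = 0.611). Without knockout replicate 4 it was 0.0055, with an interval from -0.34 to 0.35 (limma adjusted p = 0.999). Relative to the mean of the other 5 arrays, Hmox1 in that array stood at -2.07 on the log2 scale, and 30 of 27022 probe sets, or 0.111%, were at least as far below.

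Markers of capillaries were low on the same array. Of 12 endothelial markers, 10 had their lowest value of the 6 arrays in knockout replicate 4, as did 36.2% of all genes. The summed signal of the list was 8312, 12894 and 8527 in the heterozygous arrays and 8336, 4284 and 11763 in knockout replicates 2, 4 and 6. Emcn, a sialomucin of capillary and venous endothelium, stood at 244 there against 871 to 1783 elsewhere, and Pecam1, an adhesion molecule of endothelial junctions, at 44.0 against 172 to 275. Kdr, the main receptor for vascular endothelial growth factor, went the other way with 579, the second highest of its 6 values.

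Other cell types shifted on that array as well. The 9 pericyte and smooth muscle markers summed to 7618 there and to between 10326 and 12812 elsewhere, with 6 of the 9 at their lowest. The 4 granulocyte markers summed to 296 there and to between 970 and 3528 elsewhere. Macrophages, which take up haemoglobin and recycle its iron, gave sums of 10838 to 14810 over 14 markers in heterozygous arrays, and 16190, 11771 and 14616 in the knockout arrays, so the sum of knockout replicate 4 lay inside the heterozygous range. Of the 14, 7 had their lowest value there, among them Aif1 (93.4 against 175 to 292) and C1qc (218 against 408 to 636). Others went the other way, as Cd68 (227) and Cd14 (146) lay above all heterozygous arrays there (153 to 186 and 100 to 126). The summed signal of 9 bone and cartilage markers was highest there, at 20054 against 10572 to 12682 in heterozygous arrays and 15908 and 18308 in the other knockout arrays. Single genes differed, as Dmp1, Acp5, Ctsk and Mmp9 were highest in knockout replicate 6, and Alpl had its lowest value in knockout replicate 4 (605). The median log2 difference of this list was 1.11 with all arrays and 1.09 without knockout replicate 4, so the rise was not particular to that array. The part of these cell types, or of the higher 3' to 5' ratio, in the Hmox1 value was not tested. In whole-tissue RNA, fewer cells of a type and less RNA per cell cannot be told apart.

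**Figure D2:**
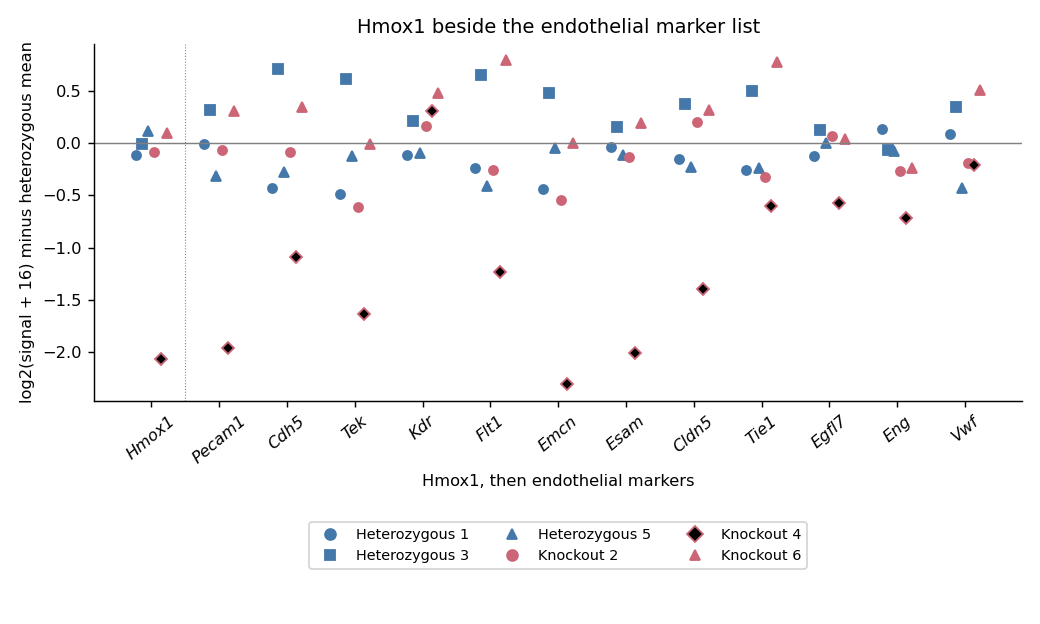
Hmox1 (left of the dotted line) and 12 endothelial markers, each point 1 array as log2(signal + 16) minus the mean of the 3 heterozygous arrays; symbols mark arrays, and knockout replicate 4 is the black diamond. That array is lowest of the 6 for Hmox1 and for 10 of the 12 markers, with Kdr and Vwf as the others.

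The genes whose 6 values lay closest to those of Hmox1 were picked on those same values. That they share its low point follows from the choice. Among 12421 genes, Esam, an adhesion molecule of endothelial junctions and itself in the marker list, was nearest, with a root-mean-square distance of 0.13 log2 units between the mean-centred values. Its signals were 824, 943 and 781 in heterozygous and 772, 198 and 973 in knockout arrays. Lrrc49 followed at 0.14 and was dim, with 5.98 in knockout replicate 4 against 66.9 to 86.1 in the other arrays. Igfbp7, a secreted protein abundant in vessels, came next at 0.17, with 1291 in knockout replicate 4 against 5819 to 7821 in the other arrays. This is a description of 6 arrays, with no test.

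Hmox2, the constitutive haem oxygenase, varied little. It gave 2749, 2282 and 2473 in heterozygous and 2704, 2118 and 2180 in knockout arrays. The groups overlapped, although knockout replicates 4 and 6 were the lowest of the 6 arrays. The log2 difference was -0.10 ± 0.13 (SE, limma adjusted p = 0.804) with an interval from -0.40 to 0.20, and -0.039 without knockout replicate 4.

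Tfrc, the transferrin receptor that brings iron into cells, gave different answers on its 3 probe sets. The brightest one gave 4950, 5132 and 5312 in heterozygous and 4284, 5684 and 5126 in knockout arrays, and knockout replicates 2 and 4 were the lowest and the highest of the 6. Its log2 difference was -0.037 ± 0.11 (SE, limma adjusted p = 0.922), with an interval from -0.28 to 0.21. It was -0.13 without knockout replicate 4, and its sign turned without knockout replicate 2 (0.073).

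The dimmer pair of Tfrc probe sets lay lower in the knockout arrays. One gave 432, 317 and 368 in heterozygous and 151, 228 and 349 in knockout arrays, with a log2 difference of -0.65 ± 0.29 (SE, limma adjusted p = 0.425, and under 0.05 before adjustment). Knockout replicate 6 lay among the heterozygous values, so the groups overlapped. Without knockout replicate 4 the difference was about as large, -0.64 (limma adjusted p = 0.630). The other gave 213, 140.4 and 205 against 140.1, 143 and 115, and the log2 difference was -0.42 (limma adjusted p = 0.518). Its groups overlapped only through knockout replicate 4, and without that array the difference was -0.48 (limma adjusted p = 0.645).

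The control probe sets for Tfrc, placed on the array to read the 3' end, middle and 5' end of this transcript, were not part of the test. The 3' one gave 276, 211 and 253 in heterozygous and 104, 149 and 218 in knockout arrays, the middle one 162, 127 and 150 against 133, 119 and 113, and the 5' one 64.2, 36.0 and 67.1 against 30.1, 28.2 and 46.7. All 3 overlapped between the groups, and each had its mean lower in knockout arrays. They read the same gene on the same arrays as the tested Tfrc probe sets and are not replicates of them. The 3' to 5' ratio was 4.29, 5.85 and 3.77 in heterozygous and 3.46, 5.30 and 4.68 in knockout arrays, so the ranges overlapped.

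Slc11a2, also called DMT1, carries ferrous iron out of endosomes and, in the gut, across the apical membrane. Its brightest probe set gave 211, 129 and 139 in heterozygous and 132, 143 and 176 in knockout arrays, with heterozygous replicate 1 the highest and the groups overlapping. The log2 difference was -0.056 ± 0.25 (SE, limma adjusted p = 0.948), with an interval from -0.62 to 0.50. It was -0.028 without knockout replicate 4 and 0.14 without heterozygous replicate 1. On the other 3 probe sets the differences were -0.053, -0.12 and -0.23 with all arrays and 0.17, 0.20 and -0.072 without knockout replicate 4, which was the lowest of the 6 arrays on each of these 3.

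Slc40a1, or ferroportin, is the exporter through which iron leaves cells and is the target of the hormone hepcidin. It gave 377, 643 and 438 in heterozygous and 435, 326 and 503 in knockout arrays on the brighter of its 2 probe sets. Heterozygous replicate 3 was the highest and knockout replicate 4 the lowest, and the other arrays were mixed between the groups. The log2 difference was -0.19 ± 0.25 (SE, limma adjusted p = 0.810) with an interval from -0.73 to 0.36. Without knockout replicate 4 it was -0.018, and without heterozygous replicate 3 it was 0.028. The dimmer probe set gave -0.27 with all arrays and -0.027 without knockout replicate 4.

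Slc40a1 had the second widest range of the 9 genes over the arrays, 0.95 log2 units, after Hmox1 at 2.19. The nearest profiles were those of Psg23 at a distance of 0.042, Lxn at 0.068 and Zfp708 at 0.086. Psg23 was dim, between 47.2 and 97.2 over the arrays. Lxn, a carboxypeptidase inhibitor, gave 630, 956 and 708 in heterozygous and 719, 496 and 850 in knockout arrays. Its highest and lowest values were on the same arrays as those of Slc40a1, as the choice by closeness makes likely.

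Cp encodes ceruloplasmin, the copper-bearing ferroxidase that oxidises the iron leaving through ferroportin. Its brightest probe set gave 3609, 3795 and 5247 in heterozygous and 4526, 3165 and 4408 in knockout arrays. Heterozygous replicate 5 was the highest and knockout replicate 4 the lowest, with both other knockout arrays between them. The log2 difference was -0.062 ± 0.17 (SE, limma adjusted p = 0.919), with an interval from -0.45 to 0.33, and it was 0.10 without knockout replicate 4.

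The 7 brighter Cp probe sets read the same gene and are not replicates of each other. All 7 had their lowest value in knockout replicate 4, and 6 of the 7 their highest in heterozygous replicate 5. Their log2 differences lay between -0.25 and -0.015 with all arrays and between -0.038 and 0.10 without knockout replicate 4. A large shift was on a probe set with 1842, 1883 and 2801 in heterozygous and 2127, 1155 and 2464 in knockout arrays, from -0.23 to 0.10. Fibrocyte markers also had their highest sum in heterozygous replicate 5, at 39871 over 9 genes against 23888 to 37169 elsewhere, and their part in the Cp values was not tested.

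The remaining Cp probe set went the other way and was the only member probe set whose groups did not overlap. It gave 72.8, 51.1 and 85.8 in heterozygous and 92.2, 221 and 103 in knockout arrays, most of them not far above the filter on dim probe sets, a mean signal of 46.3. Its log2 difference was 0.78 ± 0.34 (SE, limma adjusted p = 0.414, and under 0.05 before adjustment), and 0.43 without knockout replicate 4 (limma adjusted p = 0.736). Over all probe sets, 9.2% were higher in knockout arrays at an unadjusted p under 0.05. Where this probe set lies relative to the Cp transcripts is not given in the sources used here.

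Fth1, the ferritin heavy chain that oxidises iron as it is stored, had the narrowest range of the 9 genes over the arrays, 0.34 log2 units on its brighter probe set. That probe set gave 12084, 11373 and 11738 in heterozygous and 12329, 14383 and 12002 in knockout arrays, and knockout replicate 4 was the highest. The other gave 6576, 6048 and 6045 against 6310, 6602 and 6436. The log2 differences were 0.13 ± 0.078 and 0.052 ± 0.077 (SE, limma adjusted p = 0.537 and 0.832), and 0.053 and 0.035 without knockout replicate 4. The sign of the brighter one turned with quantile normalisation (-0.020) and with median centring (-0.066). Median centring subtracts a single value per array. It moved the median of all probe sets to -0.20 and by construction left Fth1 0.14 above that median, as with the settings used. With quantile normalisation Fth1 stood 0.026 above the median of all probe sets, which was -0.045. Ferritin genes have many processed copies, and a ferritin probe set may read more than 1 of them. Whether either Fth1 probe set does so was not tested. Iron sets ferritin and transferrin receptor levels largely through translation and transcript stability, and translation is not measured by arrays.

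**Figure D3:**
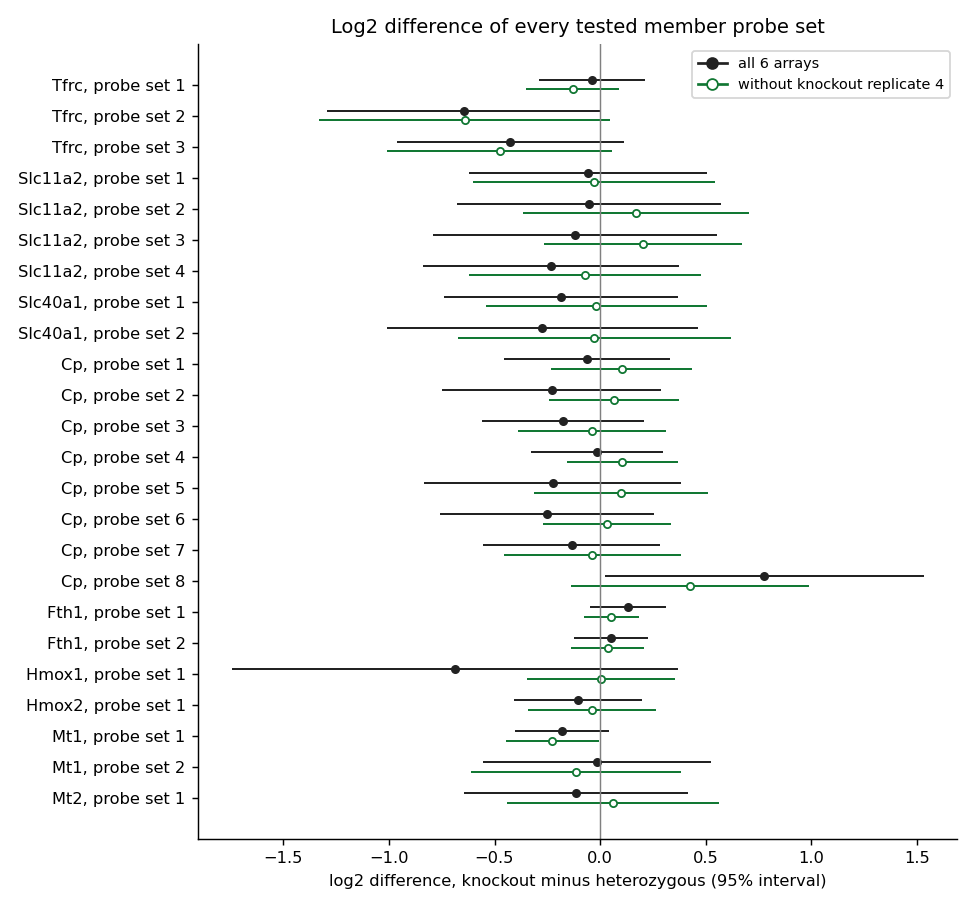
Log2 difference (knockout minus heterozygous, horizontal axis) of each of the 24 tested member probe sets with its 95% interval, from limma on all 6 arrays (black, filled) and without knockout replicate 4 (green, open); probe sets of a gene are numbered from bright to dim. With all arrays 21 of 24 points lie below 0, and without knockout replicate 4 12 lie below and 12 above.

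Mt1 and Mt2 are the metallothioneins made in most tissues, and they lie side by side on chromosome 8 with no other RefSeq gene between them. Both are switched on by the zinc-sensing factor MTF1, which binds metal response elements. Sites that hold the element's core in 1 window per gene are shown here. The cores searched were TGCGCNC and TGCACNC on both strands, in the 1 window of 250 bases that the RefSeq promoter table (GRCm38.p6) places before a transcript start of each gene. The Mt1 window precedes an inner start, so 206 of its bases lie inside the gene's RefSeq bounds. Bases further upstream of Mt1 and those after its inner start were not searched, so other Mt1 cores may have been missed. The Mt2 window lies wholly before the gene, and the counts of the pair are not compared. The Mt1 window held 1 core and the Mt2 window 3, each shown 5′ to 3′ on the plus strand, which is the strand of both genes, with 11 bases on either side and the core in capitals.
Mt1, chr8:94179055-94179083: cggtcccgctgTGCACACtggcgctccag
Mt2, chr8:94172384-94172412: agcatcgcctcTGCACCCggcccctcggg
Mt2, chr8:94172479-94172507: cgcagacccttTGCGCTCagctcctttgc
Mt2, chr8:94172557-94172585: ggggggagggcGTGTGCAggctctgtccc
The core begins 23 bases before the inner start of Mt1, and the others 223, 128 and 50 bases before the start of Mt2, and the last is on the minus strand, so its capitals are the reverse complement. Of 32817 such windows over all genes, 21.4% held at least 1 core and 5.18% at least 2. Among the other members with a window, Tfrc held up to 2 cores in a window, and Cp, Fth1, Ftl1 and Hmox2 held 0. The core was thus not particular to the metallothioneins. A match to these letters is a description and not a binding site shown by these data.

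The pair was not ordered alike over the arrays. Mt1 gave 4845, 5663 and 5562 in heterozygous and 4378, 5018 and 4764 in knockout arrays on its brighter probe set. Mt2 gave 1335, 1256 and 1576 in heterozygous and 1084, 994 and 1923 in knockout arrays. Knockout replicate 6 was thus the highest array for Mt2 and the second lowest for Mt1, and knockout replicate 2 was low for both. The brighter Mt1 probe set is of a type whose probes can match more than 1 transcript.

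For Mt1 the log2 difference was -0.18 ± 0.097 (SE, limma adjusted p = 0.504), with an interval from -0.40 to 0.037. The groups overlapped through knockout replicate 4, which lay above heterozygous replicate 1. Without that knockout array both remaining ones lay below all heterozygous arrays, and the log2 difference was -0.23 (limma adjusted p = 0.586, with an unadjusted value under 0.05). In that comparison 8.28% of all probe sets had an unadjusted p under 0.05 and 22.9% had groups that did not overlap, and 1 and 3 of the 24 member probe sets did, the other 2 of the 3 being the dimmest of Tfrc and of Cp. The other Mt1 probe set was dim, between 61.5 and 84.2, with a difference of -0.015, and of -0.11 without knockout replicate 4. For Mt2 the log2 difference was -0.11 ± 0.23 (SE, limma adjusted p = 0.886), with an interval from -0.64 to 0.41, and it was 0.063 without knockout replicate 4. The profiles nearest to Mt2 among all genes were those of Kcnk3 at 0.060, Gda at 0.090 and Phtf2 at 0.10. Picked on the same 6 values, each was highest in knockout replicate 6 and lowest in knockout replicate 4, like Mt2. The first 2 were dim (42.3 to 96.4 over the arrays).

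Mt3, the metallothionein best known from neurons, is not among the 10 genes and was the member of the pathway lists with the smallest p. It gave 226, 306 and 349 in heterozygous and 147, 188 and 179 in knockout arrays, and every knockout array lay below every heterozygous one. Its log2 difference was -0.71 ± 0.23 (SE, limma adjusted p = 0.371, and under 0.05 before adjustment), and -0.78 without knockout replicate 4, so it did not pass the test.

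**Figure D4:**
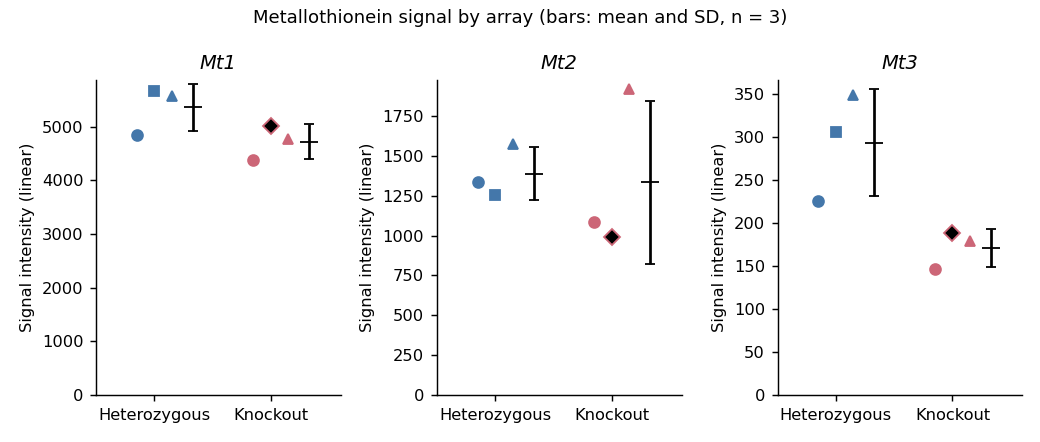
Linear signal of Mt1, Mt2 and Mt3 on each array, heterozygous in blue and knockout in red with knockout replicate 4 as a black diamond, and bars for mean and SD (n = 3). The groups overlap for Mt1 and Mt2 and do not overlap for Mt3 (226 to 349 against 147 to 188).

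By gene, on the brightest probe set, 8 of the 9 genes were lower in knockout arrays with a median log2 difference of -0.10, where 56.9% of 12421 genes were lower and the median was -0.038. Without knockout replicate 4, 5 were lower and 4 higher with a median of -0.018, beside 50.6% lower and a median of -0.0022 over all genes. By probe set, 21 of 24 were lower with all arrays, beside 50.5% of all probe sets, and 12 of 24 without knockout replicate 4, beside 45%. Without knockout replicate 2, 5 of the 9 were lower as well. Knockout replicate 4 was the lowest of the 6 arrays for 5 of the 9 genes, beside 36.2% of all genes.

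The wider pathway was described with 7 lists of 98 genes, 82 of them tested. None of the 82 passed the limma test over all probe sets, beside 0.00805% of all genes, and 3 had an unadjusted p under 0.05, or 3.66% beside 6.44% of all genes. Of the 82, 59 were lower and 23 higher, where 56.9% of all genes were lower. Without knockout replicate 4, 53 were lower, where 50.6% of all genes were. The median log2 difference over all genes, to be set beside the list medians below, was -0.038, and -0.0022 without knockout replicate 4.

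Among 14 genes of iron uptake and its systemic control, 12 were lower and 2 higher, with a median of -0.33, and of -0.11 without knockout replicate 4. Hamp, the hepcidin gene, gave 33.8, 76.1 and 98.3 in heterozygous and 26.6, 14.6 and 35.2 in knockout arrays, values around the filter, with a log2 difference of -0.99 ± 0.36 (SE, limma adjusted p = 0.374). Heterozygous replicate 1 lay inside the knockout range. Tmprss6, a protease that restrains hepcidin, gave 47.1, 57.1 and 278 against 36.6, 28.7 and 39.8. Its groups did not overlap, heterozygous replicate 5 was far above the other 5 arrays, and the log2 difference was -1.12 (limma adjusted p = 0.435).

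Among 7 genes of iron sensing and iron chaperones, 4 were lower and 3 higher, with a median of -0.0035, and of -0.026 without knockout replicate 4. Aco1, the iron-regulatory protein that binds ferritin and transferrin receptor transcripts, gave 1949 ± 139 in heterozygous and 1703 ± 248 in knockout arrays (SD, n = 3 each), a log2 difference of -0.20, and of -0.10 without knockout replicate 4. The chaperone Pcbp2, which hands iron to ferritin, differed by 0.13, and by 0.048 without that array. Among 11 genes of mitochondrial iron and iron-sulphur clusters, 9 were lower and 2 higher with a median of -0.077, and of -0.040 without knockout replicate 4. Lyrm4, a partner of the cysteine desulphurase, stood at -0.22, and at -0.14 without that array, and Isca2, an assembly factor, at 0.22 and 0.17.

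Of 8 tested genes of haem synthesis, 6 were lower and 2 higher, with a median of -0.11. Ppox, which makes protoporphyrin, gave 693, 708 and 727 in heterozygous and 977, 1252 and 768 in knockout arrays, and the groups did not overlap. Its log2 difference was 0.46 ± 0.19 (SE, limma adjusted p = 0.401, and under 0.05 before adjustment), and 0.28 without knockout replicate 4, the highest value. Uros, an earlier enzyme of the same path, differed by 0.23. Alas2, the erythroid first enzyme and a marker of red cell precursors, gave 30.4, 55.9 and 148 against 13.6, 51.0 and 70.8, and with Slc4a1 it was 1 of only 2 erythroid markers tested.

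Haem transport and breakdown genes gave 7 lower and 5 higher of 12, with a median of -0.074, and of -0.021 without knockout replicate 4. The haem-binding protein Hebp1 stood at -0.41, and at -0.13 without knockout replicate 4, where its signal was 786 against 1359 to 1855 in the other arrays. Slc48a1, which carries haem out of lysosomes, stood at -0.31. In the list of metallothionein, zinc and copper genes 14 of 19 were lower and 5 higher, with a median of -0.084, and of -0.00035 without knockout replicate 4. Besides Mt3 the smallest p there was that of the zinc importer Slc39a6, at -0.58 with all arrays and -0.25 without knockout replicate 4 (limma adjusted p = 0.432 and 0.764), and its groups did not overlap.

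Targets and regulators of NRF2, the factor that switches on Hmox1, ferritins and glutathione genes under oxidative stress, gave 7 lower and 4 higher of 11, with a median of -0.087. Osgin1, a target, gave 84.3, 50.1 and 101 in heterozygous and 94.9, 113 and 127 in knockout arrays, and its log2 difference was 0.46 (limma adjusted p = 0.553). Keap1, which marks NRF2 for degradation, differed by -0.25 (limma adjusted p = 0.612), and by -0.15 without knockout replicate 4, and for both genes the groups overlapped.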

How the data were processed

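The deposited table held signal intensity on a linear scale for each probe set, which the authors made with GCOS, per the submitters' processing notes that give no version. After trimming 2% at either end, all 6 arrays had a mean of 500.002, so they were already scaled and were used as deposited. Median signals still differed by genotype, at 82.3, 76.8 and 81.1 in heterozygous and 89.9, 105 and 88.8 in knockout arrays. With median centring, 23 of 24 member probe sets were lower in knockout arrays, where the median of all probe sets was -0.20. Of the 9 genes, 8 lay below that median, as 8 did below the median with the settings used. No genome build applies to the signals. The tests left out 64 control probe sets and those with a mean signal under the 40th percentile (46.3), which left 27022, all 24 ordinary member probe sets among them. Differences in log2(signal + 16) were fitted by lmFit and eBayes of limma 3.58.1, two-sided and with a variance trend (R 4.3.3). Names came from the platform's annotation, and the brightest probe set stood for a gene. The fit was also run on simulated data with planted differences, and the share recovered is not given here.

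The members, lists and alternatives were chosen with earlier results of these data known. All members and both genes of smallest p per pathway list were named, with the 3 nearest profiles for the 3 widest-ranging members. Single marker genes (Emcn, Pecam1, Kdr, Vwf, Aif1, C1qc, Cd68, Cd14, Alas2, Pmel, Dmp1, Acp5, Ctsk, Mmp9, Alpl) were picked after their values were seen. Promoter windows came from RefSeq (GRCm38.p6), which held 7 of the 10 genes. Median log2 differences of the marker lists, with all arrays and then without knockout replicate 4, were 0.095 and 0.33 for macrophages, -0.28 and 0.13 for endothelial cells, -0.19 and 0.071 for pericytes, 0.21 and 0.32 for fibrocytes, -0.71 and -0.049 for granulocytes, 1.11 and 1.09 for bone and cartilage, -0.55 and -0.57 for erythroid, -0.035 and -0.056 for marginal, -0.11 and -0.12 for intermediate and 0.029 and 0.026 for basal cells.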

Additional observations from a re-analysis of the deposited data

How the results depend on the processing

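In 16 alternatives no member probe set and no gene of the pathway lists passed the threshold. Over all probe sets the count of calls, 1 with the settings used, was 3 with quantile normalisation, 3 with median centring, 0 with no filter, 0 with a 60th percentile filter, 23 with array weights and 11 with 1 probe set per gene. Leaving out single arrays gave 0 to 13, with 13 without knockout replicate 4. Hmox2 and Mt1 had the same sign in each of their 16 alternatives (-0.30 to -0.012 and -0.38 to -0.13). The sign turned for Fth1 with quantile normalisation (-0.020) and median centring (-0.066), and for Slc11a2 with array weights (0.013). With single arrays left out, the log2 difference ran from -1.08 to 0.0055 for Hmox1 (turned without knockout replicate 4), from -0.13 to 0.073 for Tfrc (knockout replicate 2), from -0.34 to 0.028 for Slc40a1 (heterozygous replicate 3), from -0.18 to 0.14 for Slc11a2 (heterozygous replicate 1 or knockout replicate 2), from -0.41 to 0.063 for Mt2 (knockout replicate 2 or 4) and from -0.16 to 0.11 for Cp (heterozygous replicate 5 or knockout replicate 4). The cause was not tested. The 60th percentile filter left no value for Slc11a2. No paired analysis was possible because the genotypes share no replicate number. Dim probe sets are limited by signal over background, for which the table gives no detection call.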
